A study of Mus musculus with 9 samples.

Results

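The Hippo pathway genes described here were 10 of the 18193 genes tested. They were the 3 angiomotins (Amot, Amotl1 and Amotl2), the kinases Lats1 and Lats2, the coactivators Yap1 and Wwtr1 (which encodes TAZ), and the DNA-binding factors Tead1, Tead2 and Tead4. Genes were chosen by name and found through the array annotation, in which 25 probe sets carried 1 of these symbols and no other. Each gene is described by its brightest probe set on average over the 9 arrays, a choice that used measured values but not the groups. Its other probe sets, where it had any, were read as a check. Amot was already known to be among the largest falls in these data when the genes were chosen, so its differences are given as a description, without a p-value, and no count that includes it is used as support. The other genes and the gene lists below were also chosen with earlier results of these data known. Their counts beside all genes are therefore descriptions too, not independent tests.

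RNA from 3 groups of mouse cells was measured, with 3 biological replicates each. Epiblast stem cells (EpiSCs), which are primed pluripotent cells, received vehicle or IWP2, an inhibitor of Porcupine that keeps cells from secreting Wnt proteins. Both EpiSC groups grew in N2B27 on gelatine- and serum-coated plates, with 20 ng/ml of Activin A and 12 ng/ml of bFGF. Embryonic stem cells (ESCs), which are naive pluripotent cells, grew on gelatine in N2B27 with 1000 U/ml of LIF and 250 ng/ml of Wnt3a, so cell type and medium cannot be told apart. All groups carry the strain label C57BL/6. The sources used here do not state the dose of IWP2 or the number of cell lines, and a protocol note on adding Wnt3a does not say whether EpiSC arrays received it. Where replicates were not separate lines, p-values cover only the spread between these cultures.

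In the Hippo pathway, upstream kinases activate LATS1 and LATS2, which phosphorylate YAP and TAZ and keep them out of the nucleus. Unphosphorylated YAP and TAZ enter the nucleus and bind TEAD proteins, which supply the DNA contact, to switch on target genes. Angiomotins are junction and actin scaffolds that can hold YAP at the membrane and activate LATS kinases. In the preimplantation embryo, this pathway separates trophectoderm, where TEAD4 and YAP act, from the inner cell mass, where angiomotin and LATS restrain YAP.

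Promoter windows, from 250 bases before to 50 after the start, were found for 8 of the 10 genes in RefSeq (GRCm38.p6). No window was listed for Tead1 or Tead4. They were searched on both strands for GGAATG, the core that TEAD proteins bind, and CTTTGA, a core that the Wnt effectors TCF and LEF bind. GGAATG was present in 14.7% of all 32851 windows, CTTTGA in 16%, and both in 2.62%. Of the 8 genes, 4 had GGAATG in any window (Amotl2, Lats2, Yap1 and Wwtr1), 3 had CTTTGA (Amot, Amotl2 and Wwtr1) and 2 had both. Lats2 and Wwtr1 have 2 windows each, so these counts of genes are not in the unit of the window shares. These matches describe letters and were not tested as binding sites.

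The windows of the angiomotins are shown because Amot and its relatives parted with IWP2. The first of 2 overlapping windows of Wwtr1 is shown because this gene had the largest rise with IWP2 in the set. Ccn1, a classic YAP target that is no member of the set, is shown for its match. Capitals mark the matches. Amot lies on chromosome X, Amotl1 and Amotl2 on 9, and Wwtr1 and Ccn1 on 3. The lines are in order chrX:145487590-145487889 (minus strand), chr9:14614951-14615250 (minus), chr9:102717554-102717853 (plus), chr3:57575861-57576160 (minus) and chr3:145649936-145650235 (minus).
Amot: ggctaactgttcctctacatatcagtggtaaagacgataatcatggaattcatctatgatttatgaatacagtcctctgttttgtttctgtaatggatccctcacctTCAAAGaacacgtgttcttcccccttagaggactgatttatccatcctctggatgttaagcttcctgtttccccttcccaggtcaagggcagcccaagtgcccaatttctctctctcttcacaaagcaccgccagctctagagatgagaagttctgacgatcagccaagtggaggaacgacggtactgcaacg
Amotl1: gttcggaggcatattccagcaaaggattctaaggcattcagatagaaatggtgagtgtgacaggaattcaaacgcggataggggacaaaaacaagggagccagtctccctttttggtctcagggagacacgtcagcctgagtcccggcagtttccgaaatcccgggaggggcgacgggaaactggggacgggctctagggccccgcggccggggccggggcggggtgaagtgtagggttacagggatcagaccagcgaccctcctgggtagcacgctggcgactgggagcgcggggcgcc
Amotl2: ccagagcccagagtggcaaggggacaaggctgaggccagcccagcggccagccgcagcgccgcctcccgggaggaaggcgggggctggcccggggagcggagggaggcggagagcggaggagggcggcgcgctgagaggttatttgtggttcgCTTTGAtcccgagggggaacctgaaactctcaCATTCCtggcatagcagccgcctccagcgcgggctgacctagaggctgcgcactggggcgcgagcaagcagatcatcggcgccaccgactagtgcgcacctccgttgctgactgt
Wwtr1: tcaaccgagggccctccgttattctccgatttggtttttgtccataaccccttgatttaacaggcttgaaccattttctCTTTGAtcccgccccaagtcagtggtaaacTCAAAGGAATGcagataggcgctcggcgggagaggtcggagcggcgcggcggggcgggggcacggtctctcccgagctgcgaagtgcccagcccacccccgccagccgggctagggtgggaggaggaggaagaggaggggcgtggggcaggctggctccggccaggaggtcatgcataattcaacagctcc
Ccn1: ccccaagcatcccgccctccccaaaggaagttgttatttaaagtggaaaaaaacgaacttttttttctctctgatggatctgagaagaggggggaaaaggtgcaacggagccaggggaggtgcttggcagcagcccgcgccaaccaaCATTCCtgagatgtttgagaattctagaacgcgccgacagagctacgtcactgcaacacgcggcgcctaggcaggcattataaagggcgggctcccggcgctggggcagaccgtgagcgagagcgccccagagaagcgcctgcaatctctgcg
The Amot match was CTTTGA read on the opposite strand. The Amotl1 window held neither motif. In Wwtr1 the second CTTTGA, on the opposite strand, shares 1 base with GGAATG.

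Values are log2 signals as deposited, so a difference of 1 is 2-fold. Levels are not compared between genes, because probe sets differ in response. Across all probe sets the median was 5.24 and the lower quartile 3.72. Differences are tested with limma's moderated test over all 18193 genes, and a gene is called when its Benjamini-Hochberg adjusted p is under 0.05. In bulk RNA, fewer cells of a type and less RNA per cell cannot be told apart.

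The cell labels were checked against marker genes. The 8 naive markers had a mean of 11.29 to 11.31 on ESC arrays and of 3.82 to 4.08 on all EpiSC arrays. Of 8 primed markers, 7 fell in ESCs against the vehicle group, beside 27.9% of all genes. Endoderm markers had a mean of 8.42 to 8.54 on vehicle arrays, 4.20 to 4.35 with IWP2 and 4.47 to 4.62 in ESCs. With IWP2 7 of 8 fell, beside 16.8% of all genes. Trophoblast markers had means of 5.54 to 5.58, 4.34 to 4.45 and 5.21 to 5.24 in the same order, and fibroblast and feeder markers of 5.13 to 5.43, 4.89 to 5.06 and 4.31 to 4.36. For actin, the 3' control probe set exceeded the 5' one by 0.53 to 0.59 on vehicle arrays, 0.64 to 0.69 with IWP2 and 0.64 to 0.66 in ESCs. A larger excess is a sign of less intact RNA. For Gapdh the same difference was -0.055 to 0.004 over all arrays. The part of these shifts in the Hippo gene differences was not tested. Y-linked Eif2s3y averaged 9.83 in vehicle EpiSCs, 9.82 with IWP2 and 2.29 in ESCs. Kdm5d averaged 8.19, 8.42 and 2.55, Uty 7.62, 7.50 and 2.41, and Xist 5.14, 6.73 and 9.07. The ESCs thus also differed from both EpiSC groups in Y-linked and Xist RNA, which cannot be told apart from cell type and medium in any ESC comparison. X-linked genes as a whole were not lower in ESCs than in vehicle EpiSCs: the median difference of 617 was 0.32, against 0.11 for autosomal genes.

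Amot was the angiomotin that differed between the EpiSC groups by a large margin. Its vehicle arrays read 12.70, 12.71 and 12.63 (mean 12.68 ± 0.045 SD, n = 3). The IWP2 arrays read 8.35, 8.33 and 8.28, and the ESC arrays 4.93, 4.46 and 5.07. The 3 groups did not overlap, with vehicle highest, IWP2 between and ESCs lowest. IWP2 minus vehicle was -4.36 on the log2 scale (20.5-fold lower, the 19th largest fall of all genes). ESC minus vehicle was -7.86 (232-fold lower, the 4th largest), and ESC minus IWP2 was -3.50 (11.3-fold lower). A second Amot probe set averaged 5.60, 3.74 and 3.62 in the same order of groups, with IWP2 at the lower quartile of the array and ESCs below it. The remaining one averaged 5.17, 4.91 and 5.07. The size therefore differs between probe sets, while the first and second both put the vehicle arrays highest. The step from IWP2 to ESCs rests on the brightest probe set, the others giving -0.12 and 0.16.

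Near profiles were sought among 10947 genes outside the set whose highest group mean was above 5.24. Genes read by a probe set ending in _x_at, Riken clones and Gm gene models were left out. The profiles nearest to Amot, by root mean square difference after centring over 9 arrays, were Krt18 (0.63), Krt8 (0.69) and Fgf5 (0.86). Krt8 and Krt18 encode keratins of simple epithelia, and Fgf5 is a marker of primed epiblast. Krt18 averaged 12.17, 9.02 and 5.60 in vehicle EpiSCs, IWP2 EpiSCs and ESCs, and Krt8 averaged 12.82, 8.01 and 6.09. The nearest profiles to Amotl1 were Fam216a (0.043), B3gnt5 (0.058) and Ube4b (0.063), and those to Amotl2 were Dgcr6 (0.035), Nek9 (0.047) and Snhg6 (0.049).

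Amotl1 and Amotl2, which share the scaffold role of Amot, did not follow it with IWP2. Amotl1 read 9.25, 8.98 and 9.31 on vehicle arrays, 9.37, 9.40 and 9.50 with IWP2, and 8.09, 7.98 and 8.14 in ESCs. Its IWP2 arrays all lay above its vehicle arrays, and the ESC arrays lay below both. The IWP2 difference of 0.25 ± 0.090 (SE) was not called (adjusted p = 0.0609), while ESC minus vehicle was -1.11 (adjusted p = 2.03e-06) and ESC minus IWP2 was -1.36 (adjusted p = 4.1e-07). A second Amotl1 probe set gave 0.23 with IWP2 (not called) and -0.98 in ESC minus vehicle (called). The remaining, dimmer one gave 0.01 and 0.19, neither called. Amotl2, with only 1 probe set and so no second reading, had the same order of groups as the brightest Amotl1 probe set.

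Amotl2 read 10.79, 10.59 and 10.80 on vehicle arrays, 10.90, 10.90 and 10.95 with IWP2, and 9.83, 9.72 and 9.77 in ESCs. The IWP2 difference of 0.19 ± 0.068 (SE) was not called (adjusted p = 0.053). Amotl2 fell by 0.95 in ESCs against vehicle (adjusted p = 7.66e-07) and fell by 1.15 against IWP2 (adjusted p = 1.71e-07). By these brightest probe sets, all 3 angiomotins were lower in ESCs than in either EpiSC group, for Amot against IWP2 by that probe set alone, and Amot was lower with IWP2 while the other two were not. Vehicle replicate 2 was the lowest vehicle array for both. Without it the IWP2 difference was 0.15 for Amotl1 (adjusted p = 0.172) and 0.13 for Amotl2 (adjusted p = 0.151). Without vehicle replicate 3 both were called, at 0.31 (adjusted p = 0.0347) and 0.23 (adjusted p = 0.0461).

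**Figure D1:**
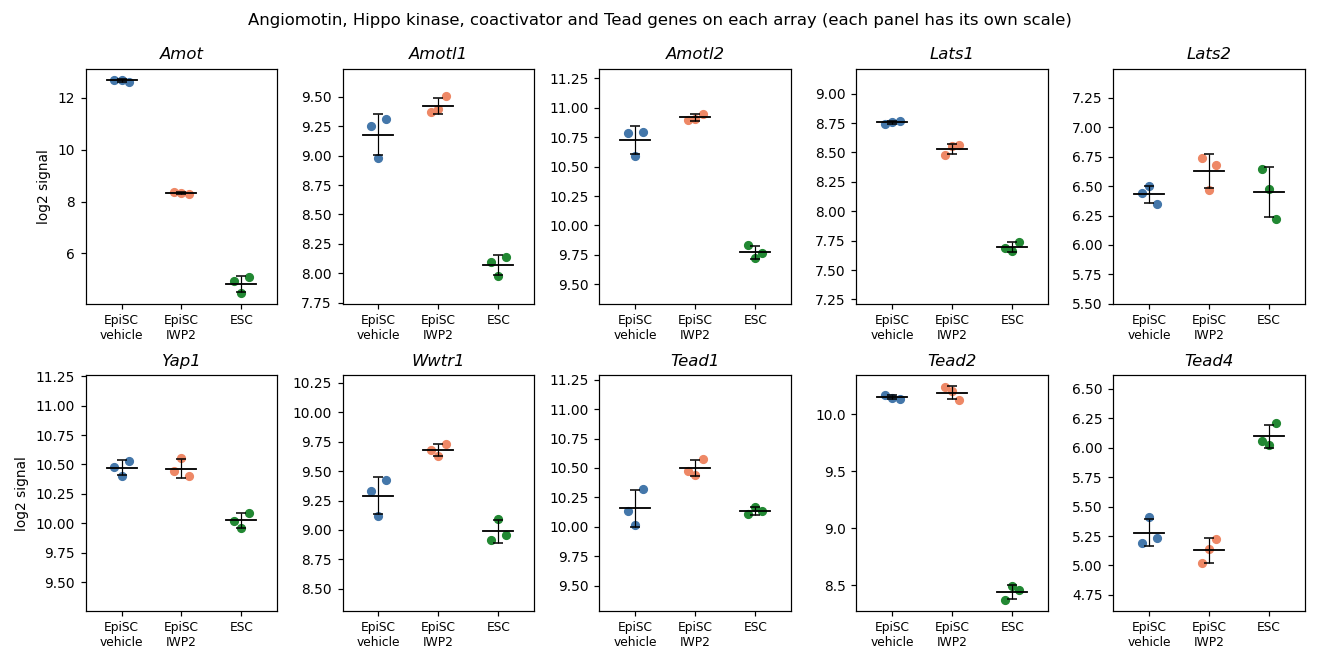
Log2 signal of each of the 10 genes on every array, 1 panel per gene with its own scale; points are arrays, lines are group means and bars are 1 SD (n = 3). Amot steps down from vehicle EpiSCs through IWP2 to ESCs, the ESC arrays of Tead2 lie below both EpiSC groups and those of Tead4 above them.

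Lats1 and Lats2 encode the kinases that phosphorylate YAP and TAZ. Lats1 read 8.74, 8.76 and 8.77 on vehicle arrays, 8.48, 8.55 and 8.56 with IWP2, and 7.69, 7.66 and 7.74 in ESCs. The groups did not overlap. Lats1 fell by 0.23 ± 0.052 (SE) with IWP2 (adjusted p = 0.0075). The difference was -1.06 in ESC minus vehicle (adjusted p = 4.22e-08) and -0.84 in ESC minus IWP2 (adjusted p = 2.42e-07). Its second probe set went the other way in ESCs, at 3.77, 3.79 and 5.71, where both EpiSC means lie near the lower quartile. The falls of Lats1 rest on the brighter probe set: with the mean of both, IWP2 minus vehicle was -0.10 and not called.

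Lats2 read 6.44, 6.50 and 6.35 on vehicle arrays, 6.74, 6.46 and 6.68 with IWP2, and 6.65, 6.48 and 6.22 in ESCs. The groups overlapped and no difference was called (ESC minus vehicle 0.02, 95% interval -0.23 to 0.27). Its 6 probe sets disagreed. One with a nearly equal mean had an ESC minus vehicle difference of -0.75, another of -0.51, and one more of 0.47, these 3 being called and the rest not.

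Yap1 and Wwtr1 encode the coactivators YAP and TAZ that the kinases restrain. Yap1 read 10.48, 10.41 and 10.53 on vehicle arrays, 10.44, 10.55 and 10.40 with IWP2, and 10.02, 9.96 and 10.09 in ESCs. The EpiSC groups overlapped, with a difference of -0.01 (95% interval -0.15 to 0.14), while ESC minus vehicle was -0.45 (adjusted p = 0.000156) and ESC minus IWP2 -0.44 (adjusted p = 0.000164). Its second probe set gave -0.28 in IWP2 minus vehicle and -0.58 in ESC minus vehicle, both called.

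Wwtr1 was higher with IWP2 and lower in ESCs. It read 9.33, 9.12 and 9.42 on vehicle arrays, 9.68, 9.63 and 9.73 with IWP2, and 8.91, 9.09 and 8.96 in ESCs. The IWP2 arrays stood above all others. Wwtr1 rose with IWP2 by 0.39 ± 0.085 (SE; adjusted p = 0.00589), fell by 0.30 in ESCs against vehicle (adjusted p = 0.0103) and differed by -0.69 in ESC minus IWP2 (adjusted p = 4.54e-05). Both other probe sets rose with IWP2 (0.29 and 0.35), but neither was called in ESC minus vehicle (0.08 and -0.07). The rise with IWP2 was 0.30 (adjusted p = 0.0158) without vehicle replicate 2, the lowest vehicle array.

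Tead1, Tead2 and Tead4 encode DNA-binding partners of YAP and TAZ. Tead1 read 10.13, 10.01 and 10.32 on vehicle arrays, 10.48, 10.44 and 10.57 with IWP2, and 10.10, 10.17 and 10.13 in ESCs. The IWP2 arrays were highest, and vehicle and ESC arrays overlapped. Tead1 rose with IWP2 by 0.34 ± 0.080 (SE; adjusted p = 0.00856) and differed between ESCs and vehicle by -0.02 (95% interval -0.20 to 0.16, not called). ESC minus IWP2 was -0.36 (adjusted p = 0.00265). A dimmer second probe set was higher in ESCs than in both EpiSC groups, by 0.67 and 0.52, and was not called with IWP2 (0.15).

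Tead2 read 10.17, 10.14 and 10.13 on vehicle arrays, 10.24, 10.20 and 10.13 with IWP2, and 8.37, 8.49 and 8.46 in ESCs. The EpiSC groups overlapped and the ESC arrays lay far below. Tead2 fell by 1.71 ± 0.057 (SE) in ESCs against vehicle (3.27-fold, adjusted p = 2.42e-09), the largest fall among the 9 genes other than Amot. ESC minus IWP2 was -1.75 (adjusted p = 1.97e-09). The IWP2 difference was 0.04 (not called). Tead2 has only 1 probe set, so there was no second reading.

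Tead4, which encodes a factor needed for trophectoderm formation, went the other way. It read 5.19, 5.41 and 5.23 on vehicle arrays, 5.02, 5.14 and 5.22 with IWP2, and 6.05, 6.03 and 6.21 in ESCs. The ESC arrays stood above both EpiSC groups, which overlapped. Tead4 was higher in ESCs than in vehicle by 0.82 (1.76-fold, adjusted p = 1.24e-05) and than with IWP2 by 0.97 (adjusted p = 3.13e-06). Its second probe set was higher by 1.18 and 1.37.

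In IWP2 minus vehicle, 3 of the 9 genes other than Amot were called (2 higher, 1 lower), against 33.5% of all genes, a like share. In ESC minus vehicle 7 of 9 were called (1 higher, 6 lower), against 66.6%, and in ESC minus IWP2 8 of 9 (1 higher, 7 lower), against 62.1%. Of all genes, 16.6%, 38.7% and 35.2% were called higher and 16.8%, 27.9% and 26.9% lower, in that order. The medians over the 9 were 0.19, -0.45 and -0.69, beside 0.03, 0.12 and 0.10 over all genes. The groups did not overlap for 5, 7 and 8 of the 9 genes, against 47%, 71% and 67.1% of all genes. Both comparisons against vehicle share its arrays.

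**Figure D2:**
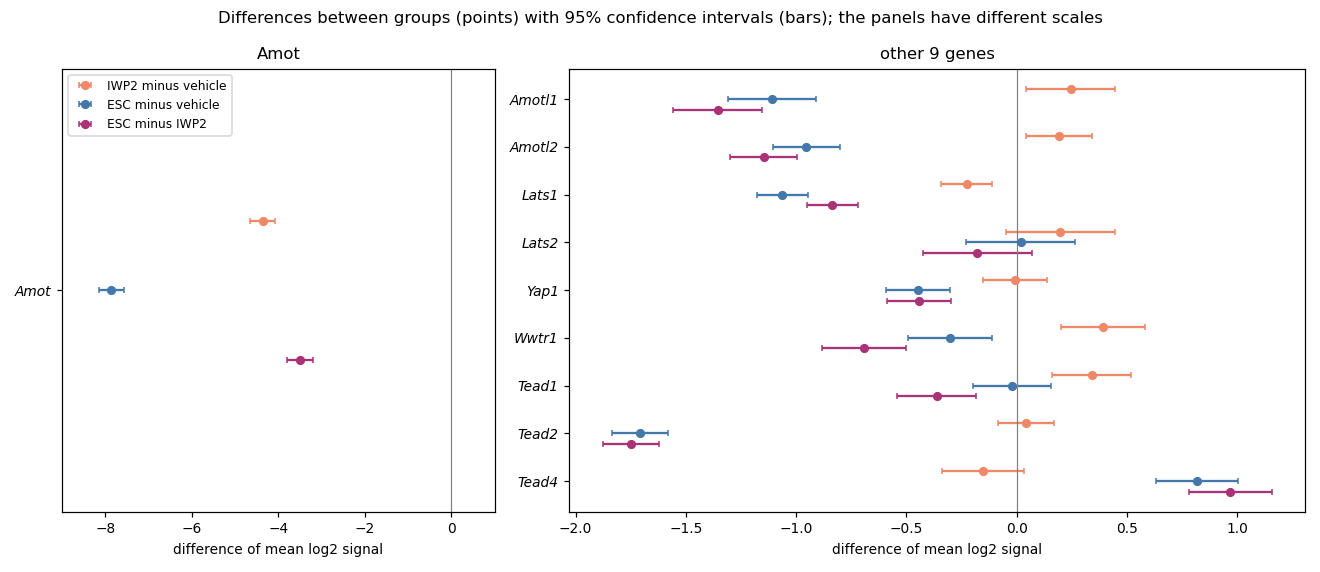
Difference of mean log2 signal for each of the 10 genes in the 3 comparisons, with bars for 95% intervals from limma; Amot has its own panel and scale, and its intervals describe the spread only. Amot is below 0 in each comparison, and of the others Tead2 is the lowest and Tead4 the highest in ESC minus vehicle.

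**Figure D3:**
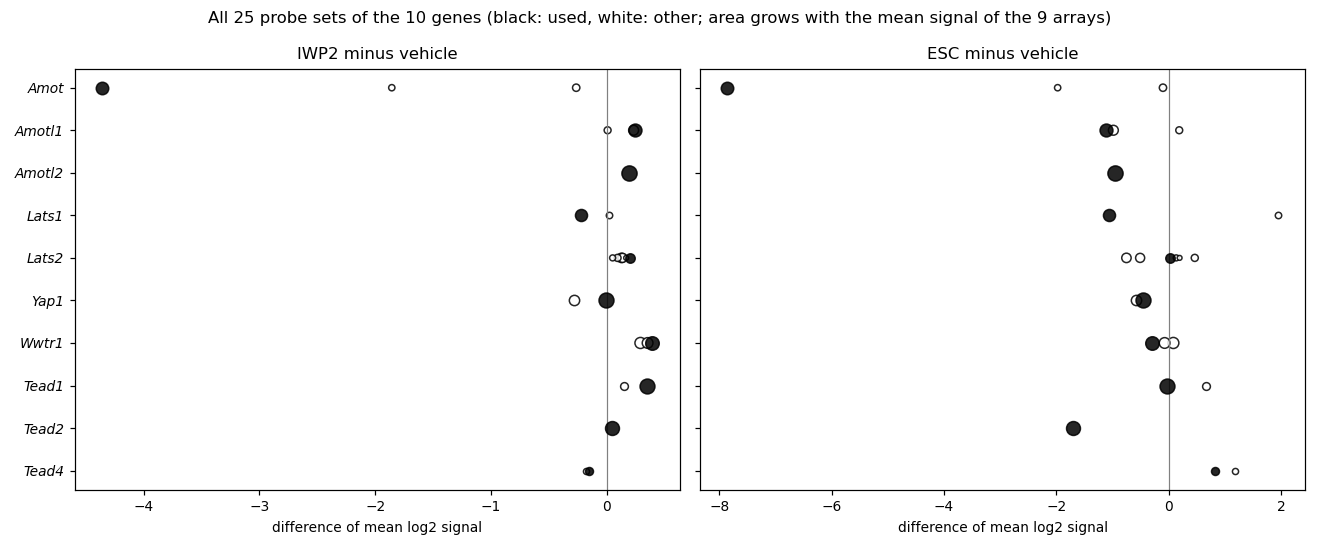
Difference of mean log2 signal in IWP2 minus vehicle (left) and ESC minus vehicle (right) for all 25 probe sets of the 10 genes; filled points are the probe sets used, open points the others, and area grows with the mean signal. In ESC minus vehicle Lats1 has one probe set at -1.06 and the other at 1.94.

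Of 15 further probe sets, belonging to 8 of the genes, 9 belong to a gene whose chosen probe set was called in ESC minus vehicle. Of those 9, 4 were called the same way, 1 the opposite way and 4 not called. With IWP2, 6 could be read so, and 3 were called the same way, 0 opposite and 3 not called. In ESC minus IWP2, 10 could be read, and 4 were called the same way, 2 opposite and 4 not called. These probe set tests were adjusted over all probe sets with a single symbol.

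The rest of the pathway was read from a list of 29 genes, of which 28 were measured (not Stk3). With IWP2, 12 were called (7 higher, 5 lower; 42.9% against 33.5% of all genes), with a median of 0.02. In ESC minus vehicle 19 were called (6 higher, 13 lower), 67.9% against 66.6%, with a median of -0.08. In ESC minus IWP2 19 were also called (7 higher, 12 lower), 67.9% against 62.1%, with a median of -0.15.

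Taok3, a kinase that can activate the upstream Hippo kinases, changed most. It read 7.85, 7.53 and 7.58 on vehicle arrays, 8.85, 8.94 and 9.04 with IWP2, and 5.19, 5.01 and 5.06 in ESCs. The groups did not overlap. Taok3 rose with IWP2 by 1.29 ± 0.093 (SE; adjusted p = 5.56e-06) and fell by 2.57 in ESCs against vehicle (adjusted p = 4.79e-09). All 4 of its probe sets were higher with IWP2, while in ESC minus vehicle 2 of the 4 were not called (0.04 and -0.23). Ptpn14, a phosphatase that binds YAP, rose with IWP2 by 0.48 (adjusted p = 0.0018) and fell by 1.98 in ESCs (adjusted p = 1.55e-08), though 1 of its 3 probe sets was called in neither. Wwc2, a Lats scaffold of the KIBRA family, rose with IWP2 by 0.64 (adjusted p = 0.00107). Mob1b, a Lats cofactor, fell by 0.56 with IWP2 (adjusted p = 0.000311), and Map4k4, a Lats-activating kinase, fell by 0.32 (adjusted p = 0.00226).

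Csnk1d, a casein kinase that acts on YAP, fell by 0.25 with IWP2 (adjusted p = 0.0161), but its probe sets disagreed: without those ending in _x_at or _s_at it was 0.26 higher. The call was also lost without vehicle replicate 2 (-0.22, adjusted p = 0.0534), IWP2 replicate 2 (-0.23, adjusted p = 0.0572) or IWP2 replicate 3 (-0.21, adjusted p = 0.0604). In ESCs against vehicle, Dlg5, a polarity scaffold, rose by 0.88 (adjusted p = 5.5e-07), Nf2, the upstream tumour suppressor Merlin, by 0.45 (adjusted p = 0.000138) and Frmd6 by 0.42 (adjusted p = 0.000946). Limd1, a LIM protein that binds Lats kinases, fell by 1.51 (adjusted p = 4.44e-08). Against IWP2, the largest falls in ESCs were Taok3 (-3.86), Ptpn14 (-2.46) and Csnk1e (-1.60), and the largest rises Dlg5 (1.07), Mob1b (0.57) and Mob1a (0.39), all called.

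**Figure D4:**
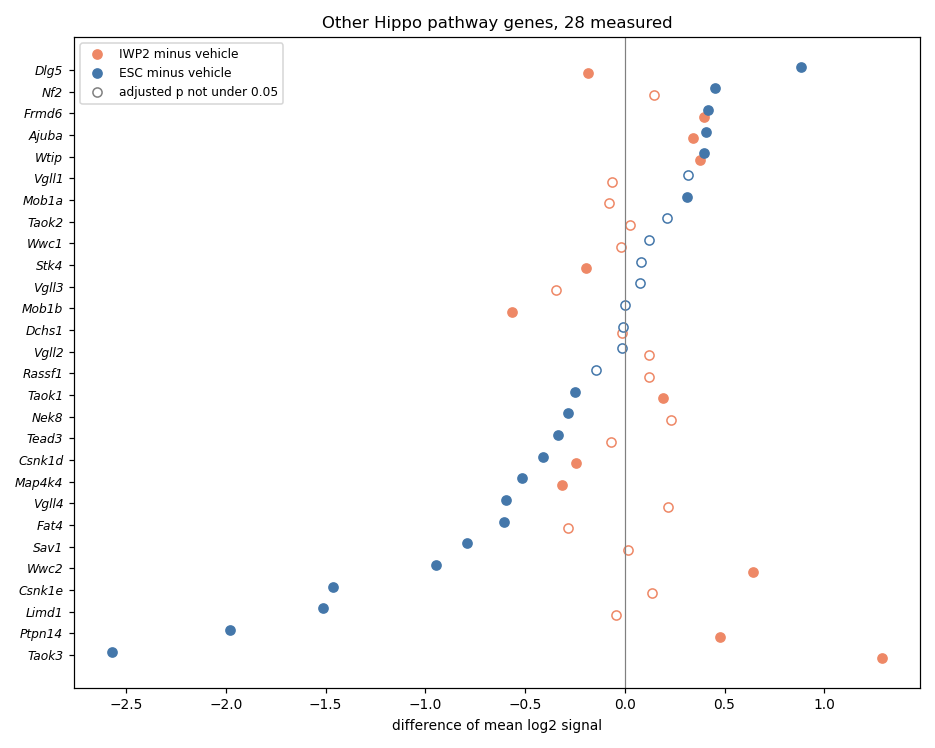
Difference of mean log2 signal in IWP2 minus vehicle and ESC minus vehicle for the 28 measured other Hippo pathway genes; open circles are not called. Taok3 and Ptpn14 lie right of 0 with IWP2 and furthest left in ESCs.

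Of 20 YAP and TEAD target genes, all measured, 11 were called with IWP2 (3 higher, 8 lower; 55% against 33.5% of all genes), with a median of -0.19. In ESC minus vehicle 16 were called (4 higher, 12 lower), 80% against 66.6%, with a median of -0.94. In ESC minus IWP2 16 were also called (5 higher, 11 lower), 80% against 62.1%, with a median of -0.55. Called targets lay on both sides of 0 in each comparison.

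Ccn1, a secreted matrix protein, and Ccn2, its close relative, are classic targets and moved in opposite directions in ESCs. Ccn1 read 11.34, 10.93 and 11.34 on vehicle arrays, 11.12, 11.16 and 11.28 with IWP2, and 6.75, 6.86 and 6.90 in ESCs. The EpiSC groups overlapped and the ESC arrays lay far below. Ccn1 fell by 4.37 ± 0.11 (SE) in ESCs (20.6-fold, adjusted p = 3.36e-10), and its 4 probe sets all fell.

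Ccn2 read 5.10, 5.42 and 5.26 on vehicle arrays, 3.89, 3.65 and 3.64 with IWP2, and 8.79, 8.84 and 8.85 in ESCs. The groups did not overlap. Ccn2 fell by 1.54 ± 0.092 (SE) with IWP2 (adjusted p = 1.52e-06), to near the lower quartile of the array, and rose in ESCs by 3.56 (11.8-fold, adjusted p = 4.45e-10, limma). Its single probe set gives no second reading.

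Nt5e, an ectoenzyme that makes adenosine, fell by 4.49 ± 0.13 (SE) with IWP2 (22.5-fold, adjusted p = 9.98e-09), from 8.30 to 3.81, which is near the lower quartile. Its other probe sets gave -0.56 (called) and 0.05 (not called), so the size is not firm. Myof, a membrane repair protein, fell by 2.05 with IWP2 (adjusted p = 1.06e-06), a reading without a second check, since its other probe set lay below the lower quartile in every group. Gadd45b, a stress response gene, rose by 1.09 (adjusted p = 0.000455), Ankrd1 by 0.73 (adjusted p = 0.0266) and the kinase Nuak2 by 0.42 (adjusted p = 0.00747). Another Gadd45b probe set rose by 1.24 (called), while a dimmer one, at 0.35, was not called. The Ankrd1 call was lost without vehicle replicate 2 (0.47, adjusted p = 0.0687), without IWP2 replicate 1 (0.73, adjusted p = 0.0649) and without IWP2 replicate 3 (0.57, adjusted p = 0.101).

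In ESCs against vehicle, Igfbp3, a binding protein of insulin-like growth factors, fell by 5.23 (adjusted p = 4.01e-11), from 11.00 to 5.77, and the growth factor Tgfb2 fell by 3.64 (adjusted p = 2.61e-08). Myof rose by 1.44 (adjusted p = 2.2e-06) and Dock5 by 0.67 (adjusted p = 0.000219). Against IWP2 the largest rises in ESCs were Ccn2 (5.10), Myof (3.49) and Nt5e (2.64), and the largest falls Igfbp3 (-5.19), Ccn1 (-4.35) and Tgfb2 (-2.89), all called. The other Nt5e probe sets, at 0.24 and 0.20 against IWP2, were not called, nor was a further Tgfb2 probe set, at -0.07.

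**Figure D5:**
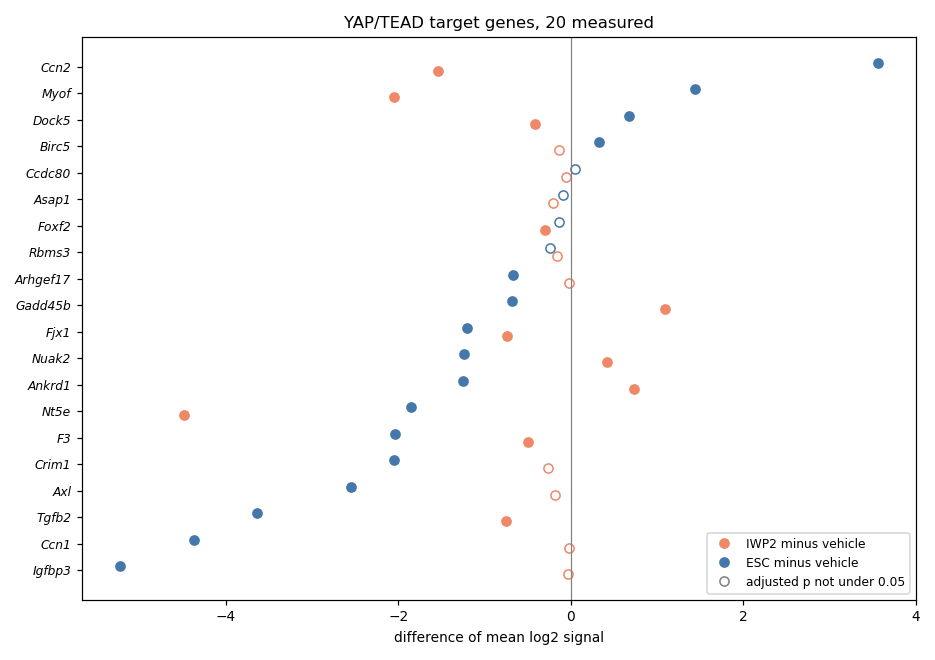
Difference of mean log2 signal in IWP2 minus vehicle and ESC minus vehicle for the 20 YAP and TEAD target genes; open circles are not called. Ccn2 is the furthest right and Igfbp3 and Ccn1 the furthest left in ESC minus vehicle, while Nt5e is the furthest left with IWP2.

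Angiomotin partners in polarity, junctions and ubiquitination were read from 14 measured genes. With IWP2, 6 were called (4 higher, 2 lower; 42.9% against 33.5% of all genes), with a median of -0.02. In ESC minus vehicle 12 were called (2 higher, 10 lower; 85.7% against 66.6%), with a median of -0.71, and in ESC minus IWP2 13 (2 higher, 11 lower; 92.9% against 62.1%), with a median of -0.86. Mpdz and Patj, multi-PDZ scaffolds of epithelial polarity complexes, differed in ESC minus vehicle by -4.79 (adjusted p = 2.01e-11) and -2.96 (adjusted p = 3.63e-06), and all 4 probe sets of each were lower. Nedd4l, a ubiquitin ligase that can act on angiomotins, rose in ESCs by 1.07 (adjusted p = 1.92e-07) and with IWP2 by 0.54 (adjusted p = 0.000152). Another of its probe sets rose with IWP2 by 0.48 (called). The rest were not called and lay below the lower quartile in both EpiSC groups. Tnks, a tankyrase that marks angiomotins for degradation, fell by 0.48 with IWP2 (adjusted p = 0.000228) and by 1.69 in ESCs against vehicle (called). With IWP2 another of its probe sets fell by 0.63 (called), while the rest, at -0.12, -0.06 and -0.04, were not called.

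Vehicle replicate 2 was the lowest vehicle array for 5 of the 10 genes, against 35.9% of all genes, and for 12 of the 20 targets.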

How the data were processed

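Processed values came from Affymetrix mouse genome arrays. The deposited values are log2 signals made with RMA, per the submitters' processing notes, which also name limma; the sources used here give no versions. Arrays give no read depth, and 3 per group limits the precision; array medians were 5.22 to 5.26.

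Probe sets with 1 gene symbol were kept (34945 of 45101), leaving 18193 genes with 1 probe set each, that of highest mean over the 9 arrays. Differences were fitted with limma 3.58.1 in R 4.3.3 (lmFit and eBayes) over all 9 arrays, without a block, and adjusted by Benjamini-Hochberg over all genes. The fit was checked on simulated data in which few genes changed, unlike here, and only for IWP2 minus vehicle. That check covers the calculation and not these data. Members and lists were chosen with earlier results of these data known. All members are named. Of each list, up to 3 called genes per direction with the largest differences (2 for partners) are named. The 3 profiles nearest to each angiomotin, the Y-linked genes and Xist are named too. Ajuba, Wtip, Tead3, Sav1, Cdx2 and Gata3 are named in addition.

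Alternatives were other probe sets, filters, offsets, normalizations, variance models, array subsets, a replicate block and adjusted p under 0.01. Settings for named list genes were chosen after seeing the data. Promoter sequences are from RefSeq.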

Additional observations from a re-analysis of the deposited data

How the results depend on the processing

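Of 660 values over genes, comparisons and alternatives, 630 kept their side of the threshold, 7 lost the call, 16 gained it and 7 reversed. Of those 630, the 449 that were called kept their direction, while 12 of the 181 that were not called took the other sign. With Amot included, 4 of the 10 genes were called with IWP2. Over the alternatives this number ranged from 2 (with each gene called as most of its named probe sets) to 6. It was 6 to 8 in ESC minus vehicle and 6 to 10 in ESC minus IWP2. The count over all genes moved too. With IWP2, 10168 of 34945 named probe sets were called, 5845 of 11006 genes above the median signal, and 3886 of 18193 at adjusted p under 0.01. Leaving out an array in turn gave 4 to 6, 8 to 8 and 9 to 10 of the 10 genes. Of all 18193 genes it gave 4949 to 5965, 11077 to 12115 and 10565 to 11323. Lats1 turned to 0.44 in ESC minus vehicle and 0.54 in ESC minus IWP2 with the mean of its probe sets or with all of them. Tead1 turned to 0.32 in ESC minus vehicle (called with the mean, not called with all) and to 0.079 in ESC minus IWP2 (not called with either). These follow from the second probe sets described above. Csnk1d (0.26) and Myof (0.014, not called) turned with IWP2 once probe sets marked _x_at or _s_at were left out; the Myof probe set then used lies below the lower quartile. Amot kept its direction with the mean of its probe sets, at -2.16, -3.31 and -1.15, and with an offset of 32, at -4.23, -6.77 and -2.54. With all of its named probe sets, ESC minus IWP2 was -0.12 and was not called. At adjusted p under 0.01, 7 rather than 12 of the other Hippo genes were called with IWP2 (25%), beside 21.4% of all genes.

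No pairing by replicate number was seen in the values: deviations of same-numbered arrays correlated at -0.06 to 0.051. This cannot show whether same-numbered cultures were handled together. With the number as a replicate block, and with Amot included, 5 genes of the set were called with IWP2. In ESC minus vehicle 8 were called, and in ESC minus IWP2 9. Of all 18193 genes, 5754, 12024 and 11138 were called with this block, in the same order. The gain within the set with IWP2 was Amotl1 (adjusted p = 0.0322). The arrays number 3 per group, and a signal near the lower quartile gives only a rough bound on a level.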

Other observations

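Within the other Hippo genes, the 3 related LIM proteins that bind Lats kinases, named here after their values were seen, took unlike values. Ajuba rose with IWP2 by 0.34 and in ESCs against vehicle by 0.41. Wtip rose by 0.38 and 0.40. Limd1 differed with IWP2 by -0.05 (not called) and fell in ESCs against vehicle by 1.51. Tead3, the Tead gene outside the set, averaged 6.32, 6.25 and 5.98 in vehicle EpiSCs, IWP2 EpiSCs and ESCs. Tead3 was not called with IWP2 and fell in ESCs against vehicle by 0.33. Sav1, the scaffold of the upstream kinases, did not pass the test with IWP2 (0.01) and fell in ESCs by 0.79. Of 10 trophoblast markers, 4 were higher and 4 lower in ESCs than in vehicle (80% called, against 66.6% of all genes). With IWP2, 0 were higher and 5 lower (50% against 33.5%). In ESC minus IWP2, 7 were higher and 0 lower (70% against 62.1%). In ESCs Cdx2, a trophectoderm factor, was higher than in vehicle by 0.87, and Gata3, another, fell by 2.04. Neither was the largest change, since the 10 markers ran from -3.02 to 4.25 in that comparison. With IWP2 Cdx2 differed by 0.01 (not called) and Gata3 fell by 2.04.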
